A study of Mus musculus with 11 samples.

Results

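Chromosome 8 of the mouse was described here through all the bins that the deposited depth files place on it, in every sequenced library. These were 2512 bins of about 50 kb among 52958 in the whole genome and 47924 on the autosomes, chosen by their chromosome name alone. They cover chr8:3000001-129301213 of the mm10 assembly (GRCm38). After bins of unusual depth were set aside, 2484 bins remained, and the 28 others are described on their own. Bulk DNA of mESC (mouse embryonic stem cells) had been sequenced at low coverage in 11 libraries, which form 7 groups, to look for gains and losses of chromosomes after deletion of the TET enzymes. Ctrl cells carry Cre/ERT2, a tamoxifen-activated recombinase, and Rosa26-LSL-H2b-Egfp, a fluorescent reporter that Cre switches on. Tet iTKO cells carry the same alleles and floxed Tet1, Tet2 and Tet3, so both genotypes carry the recombinase. Each of these genotypes gave 1 pre-treatment library without tamoxifen and 1 acute library (1 µM tamoxifen for 2.5 days and 4 further days of culture). Each also gave 3 long-term libraries from clonal populations kept for 30 days. Dnmt TKO cells are knockouts of Dnmt1, Dnmt3a and Dnmt3b, are not inducible and gave 1 long-term library. All cells were grown in 2i medium on embryonic fibroblast feeders and sorted as live CD326+ Thy1.2- cells. The labels add a GFP+ gate for Ctrl and Tet iTKO only, and the gate used for pre-treatment cells, in which the reporter had not been switched on, is not clear from them. The paper refers to earlier work for the Dnmt TKO line, whereas the Ctrl and Tet iTKO lines were derived from its own mice. The Dnmt TKO line therefore differed from the others in origin, treatment and sort as well as in genotype. These cannot be told apart with 1 library. Whether its differences in depth from Ctrl arose in culture or were already present in the line was not tested.

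A whole extra chromosome 8 is among the most frequent karyotype changes of cultured mESC. In bulk DNA the depth of a region follows the mean number of copies per cell, so a gain carried by some cells raises it less than a gain carried by all. Values are log2 ratios: the depth of a bin over the median autosomal depth of its library, against the mean of the 3 long-term Ctrl libraries. Because that reference contains the long-term Ctrl libraries, they scatter less around 0 than the others do. Gene expression was not measured here, and the genes named below are those whose DNA lies in a region.

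Median autosomal depth was 0.215 to 0.315 sequenced bases per reference base, or 215 to 315 reads of 50 bases per bin. Counting alone gives a bin an SD of 0.0813 to 0.0984 on the log2 scale at these depths. Adjacent bins of chromosome 8 scattered with a robust SD of 0.0699 to 0.119. The Y chromosome read 0.0269 to 0.0381 of autosomal depth in the 4 pre-treatment and acute libraries and 0.458 to 0.558 in the 7 long-term libraries, while the X chromosome read 0.560 to 0.592 in all. In both genotypes the earlier libraries therefore differed from the long-term ones in sex chromosome content as well as in stage. They are set beside the long-term libraries below without being taken as their source. The targeted genes lie on other chromosomes, and bins are wider than deleted exons. Over Tet1, Tet2 and Tet3 the 3 long-term Tet iTKO libraries read between -0.09 and 0.14, and over Dnmt1, Dnmt3a and Dnmt3b the Dnmt TKO library read between -0.16 and 0.05, so depth did not serve as a check of these labels.

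The edges of the copy number changes are shown first by the reference bases at the bin boundary where each step was placed. Each run is 80 bases of the plus strand of GRCm38, read from RefSeq, with the 40 bases on the side of higher depth in capitals. Depth was binned, so the true junction lies somewhere in the bins around these letters, and they locate the boundary without giving the junction. The long gain of Dnmt TKO starts at chr8:11551552-11551631, an intergenic position, and ends at chr8:93945891-93945970, in an intron of Gnao1. The distal gain of Dnmt TKO runs between chr8:126400740-126400819 and chr8:127650927-127651006, both intergenic. The gain of the second long-term Tet iTKO library runs between chr8:95796167-95796246, in an intron of Cnot1, and chr8:97796466-97796545, an intergenic position.
Dnmt TKO long gain, start: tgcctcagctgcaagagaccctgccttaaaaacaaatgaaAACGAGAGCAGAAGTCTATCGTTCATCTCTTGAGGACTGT
Dnmt TKO long gain, end: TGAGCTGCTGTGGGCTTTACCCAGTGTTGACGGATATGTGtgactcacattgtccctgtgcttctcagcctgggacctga
Dnmt TKO distal gain, start: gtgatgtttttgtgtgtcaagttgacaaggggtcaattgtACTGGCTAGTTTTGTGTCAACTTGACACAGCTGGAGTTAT
Dnmt TKO distal gain, end: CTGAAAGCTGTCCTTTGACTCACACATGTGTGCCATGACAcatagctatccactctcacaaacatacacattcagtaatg
Tet iTKO gain, start: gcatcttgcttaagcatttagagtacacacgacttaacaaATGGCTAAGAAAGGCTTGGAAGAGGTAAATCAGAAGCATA
Tet iTKO gain, end: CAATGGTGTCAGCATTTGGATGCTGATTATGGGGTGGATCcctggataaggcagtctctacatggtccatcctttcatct

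In Dnmt TKO, most of chromosome 8 was gained and both ends were not. The long gain ran over 82.4 Mb, chr8:11551592-93945930, with a median log2 ratio of 0.51, which is 1.42 times the depth of the long-term Ctrl libraries. By arithmetic, with a log2 ratio of 0 taken as 2 copies, 84.6% of the cells with 1 extra copy would give that level. The same arithmetic on the mean depth ratio gave 94.0% for its first 77 bins and 82.7% for its last 399. The share therefore depends on the stretch and on the baseline. Over the 1607 bins of the long gain the other 10 libraries read between -0.003 and 0.028. The 8.55 Mb toward the centromere read -0.08 and the 35.4 Mb toward the telomere read 0.001. Of the 1607 bins of the long gain, 1532 (95.3%) were at or above 0.25, against 0 of the 171 bins on the centromere side and 31 of the 706 on the telomere side. On the centromere side 122 of 171 bins were below 0. Its first block of 10 Mb read -0.09 (SE over bins 0.015), and 2 of 236 such blocks of the other autosomes read as low or lower in this library. With 1 Dnmt TKO library there is no replicate check, and these values are a description.

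**Figure D1:**
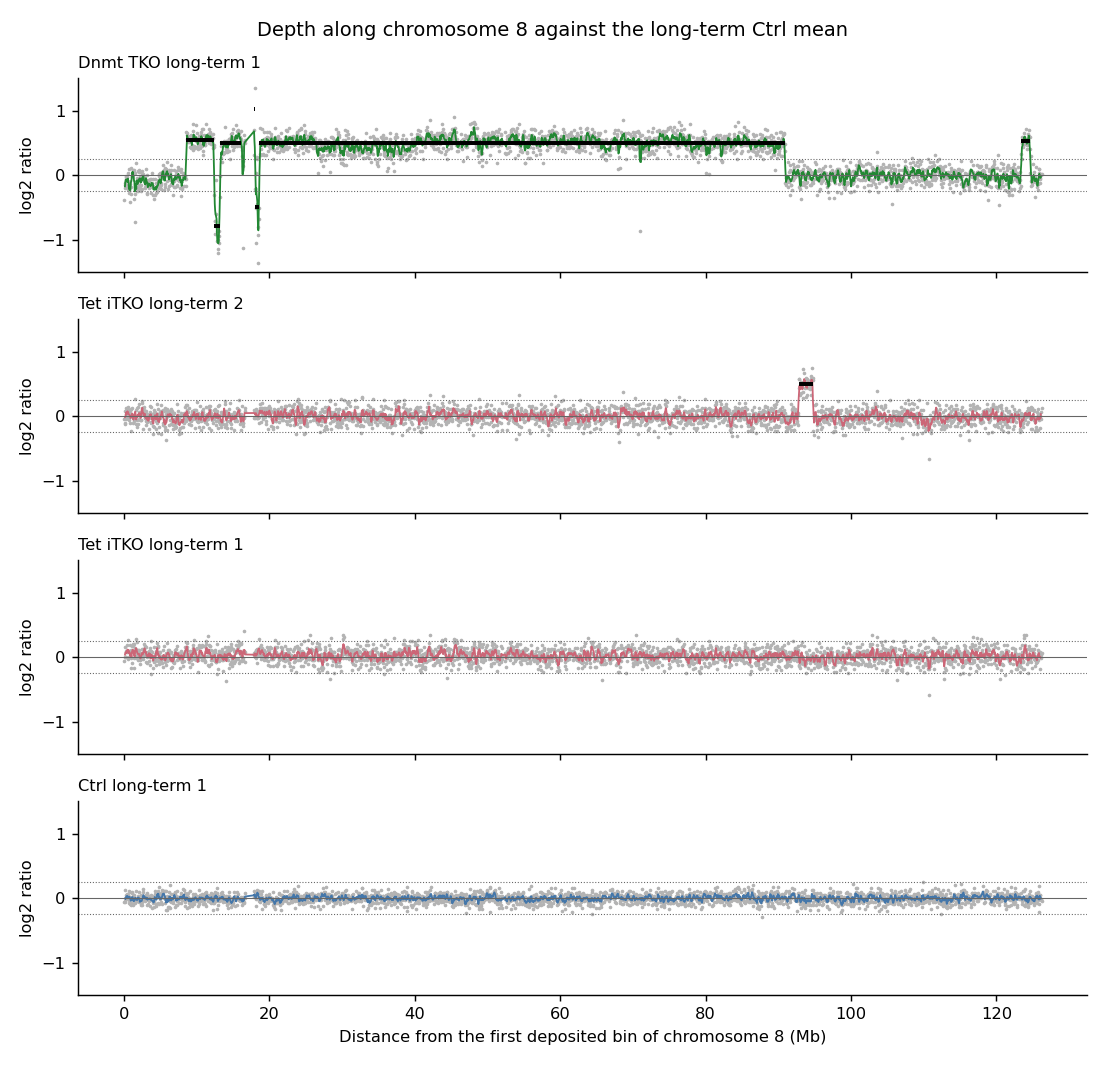
Log2 ratio of each bin of chromosome 8 (vertical axis) against distance from the first deposited bin in Mb (horizontal axis) in 4 libraries, with the running mean of 5 bins in colour and called segments as black bars. Dotted lines mark 0.25 in either direction. Dnmt TKO shows the long gain with its interruptions and a distal gain, the second long-term Tet iTKO library shows 1 short gain, and the first long-term Tet iTKO and first long-term Ctrl libraries show none.

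Segments were called where the running mean of 5 bins stayed at or beyond 0.25 in either direction for at least 5 bins. The counts in this paragraph are of bins in these called runs, before the borders were refined, and the positions and bin numbers given for single segments are those after it. Gain segments of Dnmt TKO held 1589 chromosome 8 bins, which is 64.0% of them, against 3.97% of bins over all autosomes of that library. Chromosome 8 thus carried 83.9% of all autosomal bins gained in Dnmt TKO. Loss segments held 23 bins of chromosome 8, 0.926% of them, against 1.04% over all autosomes. In the 3 long-term Tet iTKO libraries gain segments held 39 chromosome 8 bins, 0.523% of 7452, against 0.0307% over all autosomes. These 39 bins form 1 segment of 1 library. They were 88.6% of the 44 autosomal bins gained in that group, so the share over all autosomes includes them. Loss segments held 0 bins of chromosome 8 in long-term Tet iTKO, against 0.224% over all autosomes. The 3 long-term Ctrl libraries, from which the reference was made, held 0 bins in segments on chromosome 8 and 0% over all autosomes. The 4 pre-treatment and acute libraries also held 0 on chromosome 8, against 0.0555% over all autosomes. No bin of chromosome 8 lay in a gain segment of more than 1 library, so 0 bins and 0 genes were gained in common.

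The level within the long gain of Dnmt TKO was not flat. The 7 blocks of 10 Mb that lie wholly inside it read from 0.43 to 0.54. The lowest was the block from 30 to 40 Mb at 0.43 (SE over bins 0.011), between neighbours at 0.52 and 0.51, and it read 0.435 after correction for base composition. The 3 blocks from 50 to 80 Mb read 0.54 each. Bins had a robust SD of 0.12 around the stretch median, and the 5th to 95th percentile ran from 0.25 to 0.69. GC content was 41.6% in the long gain, 41.5% on the centromere side and 44.4% on the telomere side, and after GC correction the long gain read 0.51 and the telomere side 0.004. The long gain held 7.56 protein-coding genes per Mb and the telomere side 10.2.

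The outer borders of the long gain were sharp at the resolution of 1 bin. At the centromeric border the fitted level stepped from -0.06 to 0.56, and the last bin before it read -0.17 and the first bin after it 0.66. The border falls in the gap between Cars2, which encodes a mitochondrial cysteinyl-tRNA synthetase and reads -0.17, and Ing1, a chromatin-binding growth regulator that starts 3979 bases after it and reads 0.66. At the telomeric border the level stepped from 0.46 to -0.03, with 0.37 in the last bin before it and -0.13 in the first bin after it. This border lies within Gnao1, a G protein alpha subunit gene at chr8:93809966-93969388, so most of that gene is on the gained side. For both borders no other bin edge came within 2 log-likelihood units of the best fit.

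The long gain of Dnmt TKO was broken by 2 loss segments and by single bins. Of its 1607 bins, 29 departed from the stretch median by at least 0.5, of which 28 were lower and 1 was higher, and 25 of the 29 lay in the loss segments with refined borders, which hold 16 and 12 bins. The first loss, chr8:15402309-16202457, spans 800149 bases and 16 bins with a mean of -0.79 ± 0.32 (SD over bins), a depth ratio of 0.593. Over the same bins the 5 Ctrl libraries averaged 0.007 ± 0.026 (SD, n = 5). These pool the pre-treatment, acute and long-term stages, and the long-term ones form the reference, so this is not a replicate spread. It contains 1 protein-coding gene, Csmd1, a large transmembrane protein of the complement control family at chr8:15892537-17535586 on the minus strand. The loss takes 309921 bases of its 3′ end (18.9% of the gene), with 56 of the 82 annotated exons. The 7 bins of Csmd1 inside the loss averaged -0.94 ± 0.29 (SD over bins) and the 27 bins outside it 0.43 ± 0.14. The level on the centromeric side of this loss was 0.55 over 77 bins and on the telomeric side 0.50 over 59 bins.

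The second loss, chr8:21011986-21611407, spans 0.599 Mb over the alpha-defensin genes, which encode antimicrobial peptides of the intestine. Its 12 bins averaged -0.50 ± 0.51 (SD over bins) and ran from -1.36 to 0.28, so they did not share 1 level. The 5 Ctrl libraries, pooled over the same stages, averaged -0.009 ± 0.031 (SD, n = 5) there. The bin with Defa2 and Defa33 read -1.36 and the bin with Defa30 read -1.05, while the bin with Defa3 and Defa5 read 0.28. The bin before this cluster, chr8:20962034-21011985, read 1.35, the only departing bin above the stretch median. Defensin genes are close copies of each other, so reads may be shared among them and a value for 1 gene is uncertain. Further single bins below the stretch were chr8:19353045-19403053 at -1.14 and chr8:73992949-74042956 at -0.87, where the other 10 libraries read between -0.14 and 0.24. Neither contains a protein-coding gene, and the second divides the gain into separate called segments on either side of it.

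**Figure D2:**
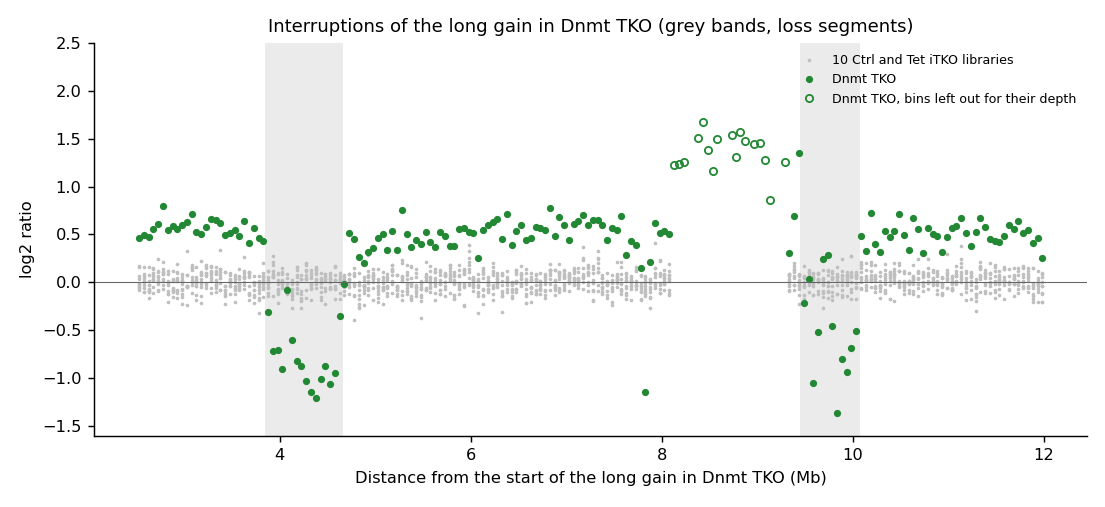
Log2 ratio of bins (vertical axis) against distance in Mb from the start of the long gain of Dnmt TKO (horizontal axis), for Dnmt TKO in green and the other 10 libraries in grey. Grey bands mark the loss segments and open circles the bins left out for their depth. Within the bands Dnmt TKO falls to between -1.36 and 0.28 while the other libraries stay around 0, and the open circles lie above the gained level.

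Between these interruptions lie 17 of the bins left out for their depth, at chr8:19653101-20862129. They read 3.26 ± 0.052 times the autosomal median in long-term Ctrl (SD, n = 3) and 3.33 ± 0.032 in long-term Tet iTKO (SD, n = 3), and the 10 Ctrl and Tet iTKO libraries lay between 3.23 and 3.38. Dnmt TKO read 8.34, a log2 ratio of 1.36, above the level of the long gain. Soft-masked repeats made up 47.2% of the bases of this region. A further 4 left-out bins, chr8:69393298-69593262, read 1.89 ± 0.012 in long-term Ctrl (SD, n = 3) and 3.43 in Dnmt TKO.

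Dnmt TKO had a separate distal gain in the otherwise balanced telomere side. It covers chr8:126400780-127650966, 1250187 bases and 25 bins, with a mean of 0.53 ± 0.11 (SD over bins), the depth ratio being 1.44. The other 10 libraries read between -0.02 and 0.04 over these bins. The level stepped from -0.04 to 0.53 at its start and from 0.53 to -0.05 at its end, and no other bin edge came within 2 log-likelihood units of either. It contains 6 protein-coding genes. Pard3, a cell polarity scaffold, read 0.55. Tomm20, a receptor of the outer mitochondrial membrane import complex, read 0.53. Tarbp1 read 0.42, Irf2bp2, a transcriptional corepressor, 0.59, Rbm34 0.49 and Coa6, a cytochrome c oxidase assembly factor, 0.33. Among the other libraries Coa6 read up to 0.30. Slc35f3, which ends 5298 bases before the gain, read -0.12, and Nrp1, a semaphorin and VEGF co-receptor that follows it, -0.01. The level of this gain differed from that of the long gain by less than the SD over its bins.

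Among the 10 Ctrl and Tet iTKO libraries, 1 segment was called on chromosome 8, a gain in the second long-term Tet iTKO library. It covers chr8:95796207-97796505, 2.00 Mb and 40 bins, with a mean of 0.50 ± 0.11 (SD over bins) and a depth ratio of 1.42. By the same arithmetic 83.6% of cells with 1 extra copy would give this level. The long-term Tet iTKO libraries 1 and 3 read -0.03 and -0.04 over these bins, and the 3 long-term Ctrl libraries read -0.02, 0.04 and -0.02. Ctrl pre-treatment read -0.05, Tet iTKO pre-treatment -0.05, Ctrl acute -0.05, Tet iTKO acute -0.06 and Dnmt TKO -0.03. The gain was thus seen in 1 of 3 long-term Tet iTKO libraries and in neither earlier Tet iTKO library. The earlier Tet iTKO libraries had a Y chromosome depth of 0.0381 and 0.0304 against 0.549 to 0.558 in the 3 long-term ones. A gain carried by few cells of the earlier libraries would not be detectable at this depth.

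This gain is gene poor and lies wholly outside the long gain of Dnmt TKO, on its telomeric side. It overlaps 4 protein-coding genes, which all lie at its centromeric end. Got2, the mitochondrial aspartate aminotransferase, read 0.58 in this library, Slc38a7, a lysosomal amino acid transporter, 0.57, and Sap18b 0.57. Cnot1, the scaffold of the CCR4-NOT deadenylase complex, is cut by the border, with 12.8% of the gene inside, and read 0.07 as a whole. Setd6, a lysine methyltransferase gene on the outer side, read -0.14. After Got2 the gain continues for 1907959 bases without a protein-coding gene, and Cdh8, a cadherin gene 1227965 bases beyond its end, read -0.005. The level stepped from -0.04 to 0.49 at the start and from 0.51 to -0.05 at the end.

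**Figure D3:**
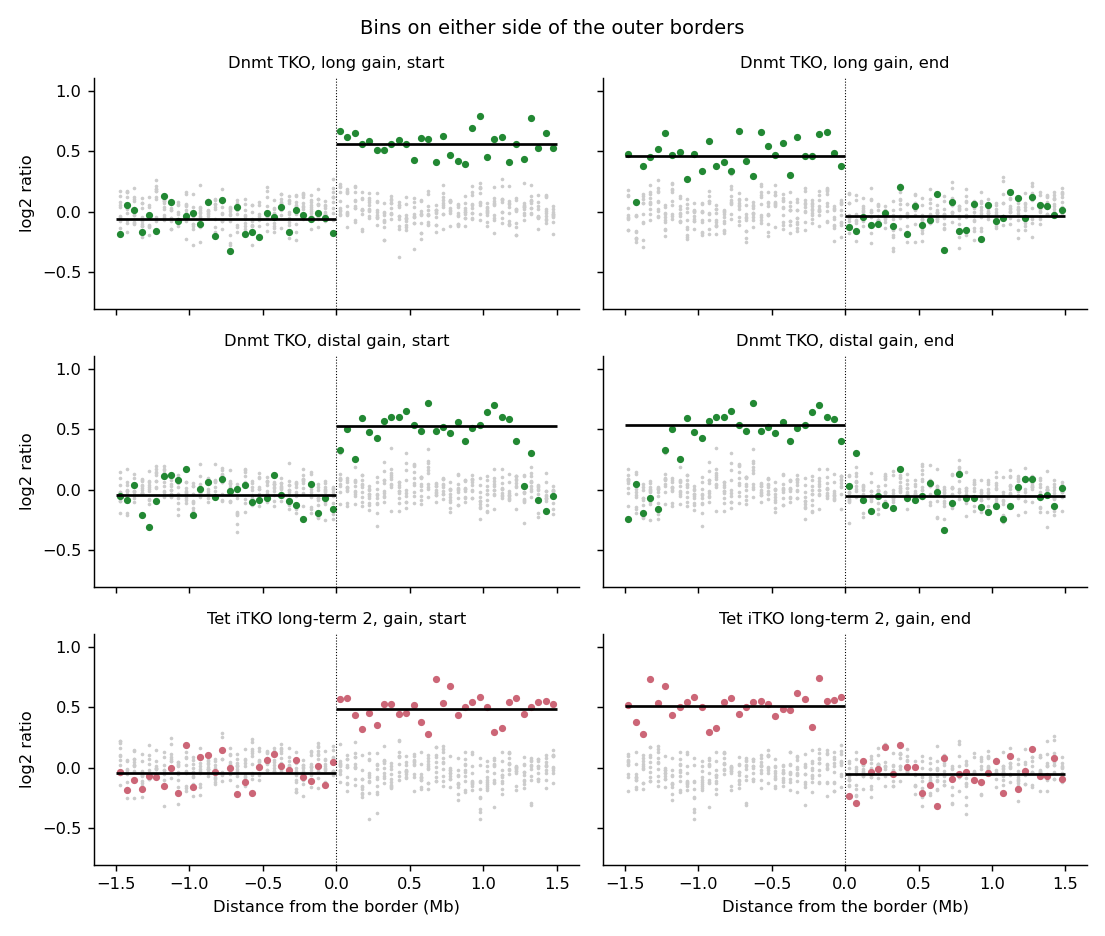
Log2 ratio of bins (vertical axis) within 1.5 Mb of 6 borders (horizontal axis, distance in Mb, telomere to the right). Coloured points are the library named above each panel, grey points the other 10 libraries, and black lines the fitted level on each side. Each border separates a level near 0 from one near 0.5 within 1 bin.

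The long gain of Dnmt TKO holds 623 of the 1040 protein-coding genes of chromosome 8 (59.9%). Of the 1034 genes with a value, 603 (58.3%) read at or above 0.25 in that library, with a median of 0.40. Lists were read against these shares. Most genes cover 1 to 3 bins, so a gene's value carries about the counting error of a bin, and over all genes the other 10 libraries ranged from -0.45 to 0.58.

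Genes of pluripotency and early development lay in the long gain in 9 of 12 cases (75.0%), with a median of 0.53 for those 9. Zfp42, which encodes the pluripotency marker REX1 at chr8:43295063-43306980, read 0.64. Smad1, an effector of BMP signalling, read 0.75 and Sall1, a zinc finger factor of the pluripotency network, 0.53. The tripartite motif genes Triml1 and Triml2 read 0.34 and 0.42. Cdh1, E-cadherin, on the telomere side, read 0.06.

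Genes of chromosome segregation lay in the long gain in 10 of 15 cases (66.7%), with a median of 0.55. The anaphase-promoting complex subunits Cdc16 and Anapc10 read 0.46 and 0.56. Cenpu, a kinetochore protein gene, read 0.65, while Cenpn, another one, lies on the telomere side and read -0.11. Haus8, an augmin subunit, read 0.55 and Mcph1, a regulator of chromosome condensation, 0.63. Chmp1a, chosen after its values were seen, read 0.31 and lies on the telomere side in no called segment. DNA replication and repair genes lay in the long gain in 11 of 20 cases (55.0%). Orc6, an origin recognition subunit, read 0.58, Rnaseh2a, a ribonuclease H2 subunit, 0.62, Asf1b, a histone chaperone, 0.42 and the helicase subunit Mcm5 0.31. The licensing factor gene Cdt1 read -0.03 and the GINS subunit gene Gins2 0.13, both on the telomere side.

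Of the genes of cell cycle, growth and apoptosis, 13 of 16 (81.2%) lay in the long gain. Fgfr1, a fibroblast growth factor receptor, read 0.57, Tfdp1, the partner of E2F factors, 0.54 and Rbl2, a retinoblastoma family member, 0.58. E2f4 read 0.19 on the telomere side and Irs2, the insulin receptor substrate, -0.18 on the centromere side. Of the chromatin genes, 9 of 10 (90.0%) lay in the long gain. The acetyltransferase gene Kat6a read 0.63, the methyltransferase gene Nsd3 0.53, Ash2l, a core subunit of H3K4 methyltransferases, 0.56, Gatad2a, of the NuRD complex, 0.47, the bromodomain gene Brd7 0.67 and the remodeller gene Chd9 0.46. The lists are short and were drawn up by function on this chromosome, with earlier results of these data known. These shares therefore only describe where the genes lie.

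The gene families of chromosome 8 were divided by the borders. All 46 defensin genes lay inside the outer borders of the long gain, but 14 of them read below 0, all alpha-defensins, and 29 read at or above 0.25. The beta-defensin genes Defb40 and Defb37, in 1 bin, read 0.45. Of 19 carboxylesterase genes, which encode enzymes of lipid and drug hydrolysis, 9 lay in the long gain, among them Ces1a at 0.56 and Ces1e at 0.67, and the other 10 on the telomere side. All 8 cadherin genes lay on the telomere side, of which Cdh3 read 0.31 and Cdh8 0.03. Cdh3 was nearly as high in the first and second long-term Tet iTKO libraries, at 0.27 and 0.30. Tet iTKO acute read 0.20 there, Ctrl acute 0.18 and the third long-term Tet iTKO library 0.15. The other Ctrl and Tet iTKO libraries read from -0.06 to 0.11. The 4 metallothionein genes, whose products bind zinc and copper, lay just beyond the telomeric border, and Mt1, Mt2 and Mt3, in 1 bin, read -0.10.

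The median level of chromosome 8 did not differ detectably between the long-term groups. Its median log2 ratio was 0.023, -0.004 and 0.004 in the 3 Tet iTKO libraries and -0.002, 0.006 and -0.001 in the 3 Ctrl libraries. The difference of means was 0.007, with SDs of 0.014 and 0.0045 (exact two-sided permutation test, n = 3 against 3, p = 0.7). The groups overlapped, and 3 libraries against 3 cannot give a p below 0.1. With the mean over bins in place of the median, which takes in the short gain, the difference was 0.010 and the groups did not overlap (exact two-sided permutation test, p = 0.1). Over the bins of the long gain of Dnmt TKO, the Tet iTKO libraries read 0.028, 0.001 and 0.013 and the Ctrl libraries -0.0005, 0.010 and -0.003 (exact permutation p = 0.2, adjusted over 3 stretches 0.6). The centromere side differed by 0.008 (exact permutation p = 0.7, adjusted 0.7) and the telomere side by -0.006 (exact permutation p = 0.4, adjusted 0.6). A level of 0.028, that of the first long-term Tet iTKO library, would correspond to 3.89% of cells with 1 extra copy of the stretch.

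The first long-term Tet iTKO library was above 0 in 12 of 13 blocks of 10 Mb. Its 7 blocks inside the long gain of Dnmt TKO read from 0.019 to 0.052, and the 3 blocks beyond its telomeric border from 0.008 to 0.012. Its highest block, from 40 to 50 Mb at 0.052, was above all 236 blocks of the other autosomes in this library, whose SD was 0.014. In long-term Tet iTKO libraries 2 and 3, blocks ran from -0.030 to 0.019 and from -0.021 to 0.035. The 3 long-term Ctrl libraries stayed between -0.017 and 0.018. In 3 of 13 blocks the 3 Tet iTKO libraries lay above the 3 Ctrl libraries without overlap, those starting at 0, 20 and 40 Mb, and in 0 blocks below. Over all autosomes 22.5% of 249 blocks did not overlap, so 3 of 13 is near the background.

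A contrast within each library, chosen after the values were seen, set the bins of the long gain of Dnmt TKO against the telomere side. It was 0.021, 0.019 and 0.026 in the long-term Tet iTKO libraries and 0.003, 0.010 and -0.003 in the long-term Ctrl libraries, which did not overlap (difference 0.018, exact permutation p = 0.1, the smallest this design allows). After GC correction the difference was 0.027 (exact permutation p = 0.1). Because the contrast was picked on these same values, neither p-value is a test of it. Ctrl acute read 0.012 and Ctrl pre-treatment -0.011 as deposited, and 0.022 and 0.012 after GC correction. Tet iTKO acute read 0.0095 and Tet iTKO pre-treatment 0.0014 as deposited, and 0.021 and 0.020 after GC correction, so the earlier libraries of the 2 genotypes overlapped.

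**Figure D4:**
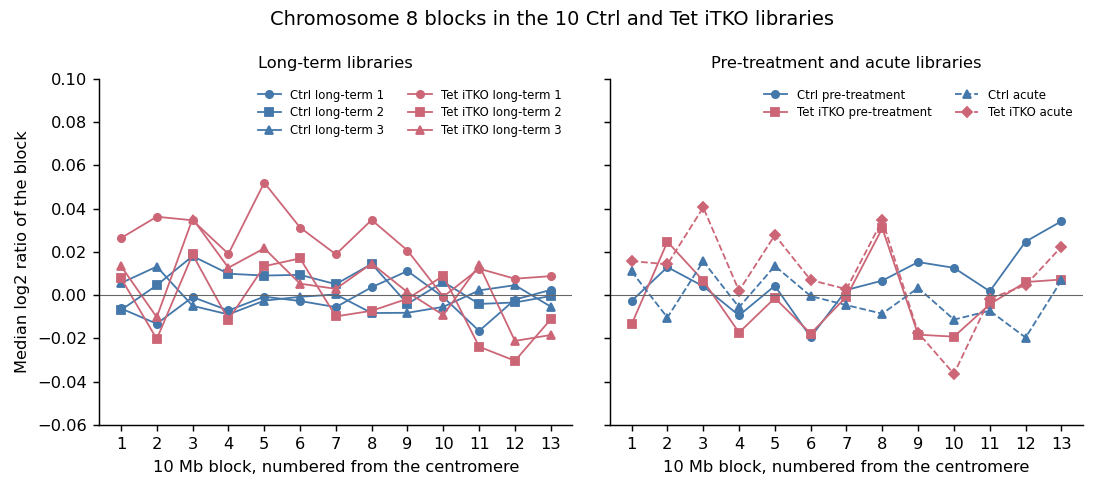
Median log2 ratio of each 10 Mb block (vertical axis) in order from the centromere (horizontal axis) for the 6 long-term and the 4 pre-treatment and acute libraries of Ctrl (blue) and Tet iTKO (red). All values lie between -0.036 and 0.052, and the first long-term Tet iTKO library is the highest of the long-term libraries in most blocks up to the ninth.

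No segment was called on chromosome 8 before tamoxifen or in the acute libraries. Acute minus pre-treatment blocks ran from -0.044 to 0.019 in Ctrl (SD over 13 blocks 0.019) and from -0.017 to 0.034 in Tet iTKO (SD 0.016). Differences between pairs of long-term Ctrl libraries had SDs over blocks of 0.0099 to 0.012. These earlier stages have 1 library each and no test. The chromosome median moved by -0.009 in Ctrl and by 0.011 in Tet iTKO.

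Single bins of the 2 long-term groups were compared with limma on the log2 relative depth, fitted on all 47708 autosomal bins with Benjamini-Hochberg adjustment. The 2 groups came from separate Ctrl and Tet iTKO lines, so a difference cannot be assigned to genotype rather than line. Their Y chromosome depths also differed, at 0.463 to 0.470 in Ctrl and 0.549 to 0.558 in Tet iTKO. On chromosome 8, 2 of 2484 bins passed an adjusted p of 0.05, 1 higher and 1 lower in Tet iTKO. Over all autosomes 0.0105% of bins passed as higher and 0.0964% as lower. At an unadjusted p under 0.05 there were 171 bins on chromosome 8 (6.88%), against 6.04% over all autosomes. The groups did not overlap in 304 chromosome 8 bins (12.2%), against 11.3% over all autosomes.

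The lower bin was chr8:113748890-113798896, inside Adamts18, a secreted metalloprotease gene at chr8:113697126-113848738 on the minus strand, and it holds 16 annotated exons of that gene. Its log2 ratio was -0.59, -0.66 and -0.42 in the 3 long-term Tet iTKO libraries and -0.08, 0.03 and 0.04 in the 3 long-term Ctrl libraries. The groups lie far apart, with a difference of -0.55 (SE 0.076, limma adjusted p = 1.01e-05). Read numbers were 151, 137 and 156 against 267, 196 and 229. Tet iTKO pre-treatment read -0.29 and Tet iTKO acute -0.32, between the long-term groups, while Ctrl pre-treatment read 0.04, Ctrl acute -0.05 and Dnmt TKO -0.18. The neighbouring bins differed by -0.13 and -0.11 between the long-term groups and were not called.

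The higher bin was chr8:45010464-45060529, over the 3′ end of Fat1, an atypical cadherin gene at chr8:44935447-45052257 on the plus strand. It read 0.35, 0.33 and 0.33 in long-term Tet iTKO and -0.02, -0.07 and 0.09 in long-term Ctrl, without overlap (difference 0.34, SE 0.073, limma adjusted p = 0.030). The earlier libraries did not follow the same division. Ctrl pre-treatment read 0.14 and Ctrl acute 0.22, against 0.30 in Tet iTKO pre-treatment and 0.16 in Tet iTKO acute, so that the long-term Ctrl libraries were the lowest. Dnmt TKO read 0.86 there, above its long gain. Leaving out any of the long-term libraries other than Ctrl replicate 3 ended this call, with limma adjusted p between 0.061 and 0.35, while the difference stayed between 0.30 and 0.38.

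**Figure D5:**
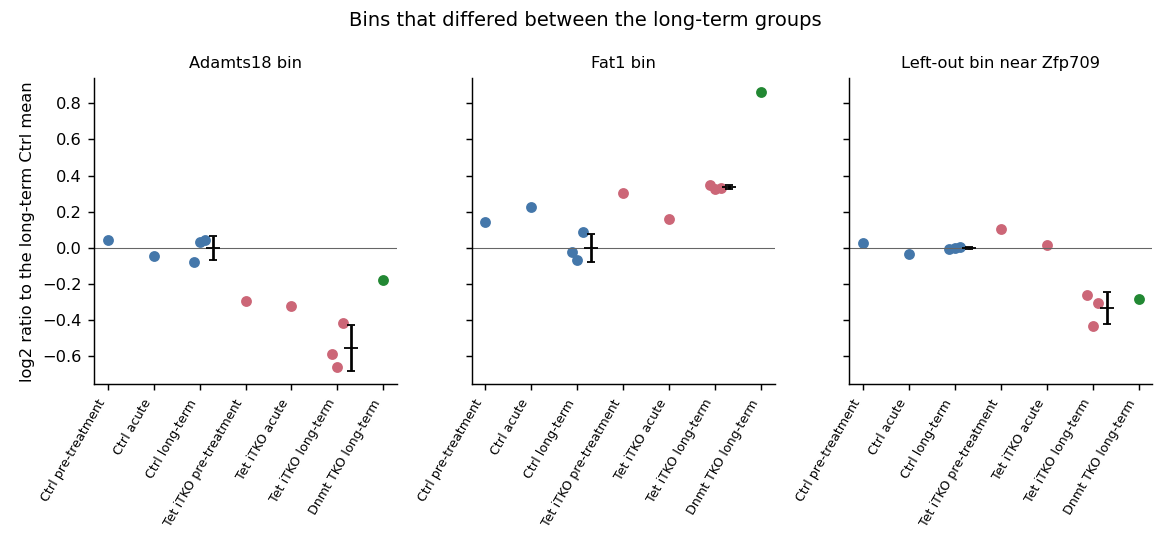
Log2 ratio to the long-term Ctrl mean (vertical axis) by group (horizontal axis) in the Adamts18 bin, the Fat1 bin and the left-out bin near Zfp709. Points are libraries, and bars give the mean and SD of the long-term groups of 3. The 3 long-term Tet iTKO libraries lie below all Ctrl libraries in the outer panels and above the long-term Ctrl libraries in the middle one.

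Of the 28 bins left out for their depth, the long-term groups did not overlap in 9, with Tet iTKO lower in 6 and higher in 3. Over all autosomal bins without the depth filter 11.3% did not overlap. The 28 bins are deeper than most, with less counting error, and 17 of them lie in 1 region. Their count is therefore not directly comparable with that share. Of the 28, 1 passed as lower in a fit without that filter, against 0.102% of all autosomal bins. The 2 bins at chr8:71792885-71892867 include Zfp709, a zinc finger gene, and read 2.49 ± 0.060 times the autosomal median in long-term Ctrl and 2.04 ± 0.11 in long-term Tet iTKO (SD, n = 3 each). Tet iTKO pre-treatment and acute read 2.64 and 2.58, and Ctrl pre-treatment and acute 2.60 and 2.43, so the earlier Tet iTKO libraries were not lower. In that fit the first of these bins passed (difference -0.33, limma adjusted p = 0.031). The 2 bins at chr8:71093005-71192987 read 2.10 ± 0.013 in long-term Ctrl and 1.76 ± 0.026 in long-term Tet iTKO (SD, n = 3 each), with no overlap, and neither passed. Repeats made up 50.7% and 56.9% of the bases of these regions, and the part of repeat copies elsewhere in the genome in these depths was not tested.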

How the data were processed

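The authors aligned single-end reads to mm10 (BWA-mem) and dropped optical duplicates (Picard). The submitters' notes also name BSMAP 2.74v, which the study used for its bisulfite data. The deposited depth is a signal, the mean coverage of each bin, as it was before any scaling or correction for base composition. The deposited log2 values are the log2 of that depth and were not used. Of 3432 bin values with fewer than 400 bases, 96.2% summed to a multiple of 50 bases, so reads were taken as 50 bases, although the study's methods give a longer minimum. GRCm38 chromosome lengths were checked against the bins, and genes came from GENCODE M21.

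Depth was divided by each library's median autosomal bin depth. Bins under 25 kb, or with a mean relative depth outside 0.5 to 1.5, were left out. Borders were placed by a least-squares step within 1.5 Mb. Gain segments of Dnmt TKO at most 2.5 Mb apart were joined as the long gain. Groups of 3 were compared with two-sided tests, limma's moderated model (lmFit and eBayes, version 3.58.1, in R 4.3.3) and exact permutation. The labels call the long-term libraries clonal populations, and p-values measure the spread between them. The titles number the libraries of a group and do not say whether each is a separate clone. Ctrl and Tet iTKO libraries came from separate lines, so these p-values cannot tell genotype from line. Pairs of long-term libraries of 1 group had a chi-square per degree of freedom of 1.01 to 1.15. It was above 1, the value for read counting alone, in each of 6 pairs, and the libraries were counted separately. Pairs with the second Tet iTKO library gave 1.15 and 1.14, and the other pairs at most 1.03. The spread behind the p-values was thus close to that of read counting. Replicate numbers did not pair the libraries (correlations of deviations between -0.005 and 0.0019). In simulated reads for the long-term comparison over 47708 bins, 63.5% of 63 bins changed by 0.3 were recovered, 100% of those changed by 0.5 or 0.8, and 8 unchanged bins were called. These reads held counting noise only, without the added spread of the second Tet iTKO library, so recovery in the data may be lower. Named regions were every called segment and every called chromosome 8 bin without overlap. Named genes were those in segments of up to 2.5 Mb, at borders or in named bins, and the first 6 of each functional list, and 2 of these genes are not reported here. The members and lists were chosen with earlier results of these data known. Python 3.11.15, pandas 2.3.3, statsmodels 0.14.6 (lowess, span 0.3, 3 iterations) and matplotlib 3.10.9 were used.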

Additional observations from a re-analysis of the deposited data

Results flagged for a closer look

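Acute minus pre-treatment moved in opposite directions in the 2 genotypes for the chromosome, the gained stretch and the telomere side, each with 1 library per stage, and this difference was not tested. The chromosome 8 median moved by -0.0089 in Ctrl and by 0.011 in Tet iTKO. The stretch gained in Dnmt TKO moved by -0.0019 in Ctrl and by 0.013 in Tet iTKO. The telomere side moved by -0.025 in Ctrl and by 0.0050 in Tet iTKO. The centromere side moved by 0.0027 and 0.023, the same direction in both, and the blocks from 0 to 10 Mb and from 20 to 60 Mb were also above their pre-treatment values in both. Between pairs of long-term Ctrl libraries the largest differences were 0.0082 for the chromosome, -0.013 for the gained stretch and 0.0032 for the telomere side.

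Bins left out of the comparisons for their depth read higher in Dnmt TKO than in any Ctrl library at 3 places. The region starting at chr8:19653101 read 8.34 times the autosomal median, that starting at chr8:69393298 read 3.43 and that starting at chr8:71093005 read 2.27. All 3 lie within the long gain, but not all left-out bins there were raised. The left-out bins of the regions starting at chr8:55073647 and chr8:71792885 read 2.04 and 2.38 in Dnmt TKO. Their log2 ratios to long-term Ctrl were -0.0077 and -0.063. The log2 ratios of the 3 raised regions were 1.36, 0.86 and 0.11, the first and second above the median of the long gain (0.51) and the last below it.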

How the results depend on the processing

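The Adamts18 bin passed under all 11 alternatives that kept single bins (limma adjusted p from 4.04e-06 to 0.00052, difference from -0.62 to -0.50), and the Fat1 bin under 6 of 11 (adjusted p from 0.015 to 0.35). With 500 kb windows, 1 window of chromosome 8 passed, chr8:48264727-48765382 at 0.11, and it holds neither of these bins. The replicate block called 2 bins on chromosome 8, as did the fit without it, although the numbers do not pair the libraries. Leaving out each long-term library in turn gave 1 to 2 bins on chromosome 8 and 36 to 97 over all autosomes, against 51, and the highest count came without Tet iTKO replicate 3. No depth filter and a variance trend with a robust fit gave 3 bins each, the one added being the left-out bin near Zfp709 and a bin over Cdh3, respectively.

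Differences in level between the long-term groups were small, and some turned direction. Leaving out 1 library, they ranged from -0.00068 to 0.013 for the chromosome, from 0.0054 to 0.019 for the stretch gained in Dnmt TKO, from -0.0048 to 0.021 for the centromere side and from -0.014 to -0.0015 for the telomere side. The reversals for the chromosome and the centromere side came without the first Tet iTKO replicate. The mean over bins gave 0.010 for the chromosome (exact permutation p = 0.1, against 0.7 for the median) and turned the telomere side to 0.00098, and that mean includes the short gain of 1 library.

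Dnmt TKO had 8 segments, 13 with a running mean of 3 bins and 14 with a threshold of 0.3. With a flank of 1 Mb, the start of the short gain segment before the alpha-defensin loss moved from 20912082 to 19153007. With a flank of 3 Mb, the end of the gain segment that follows the Csmd1 loss moved from 19153007 to 20912082, and the shared edge of the gain segments on either side of the single low bin from 73992949 to 76593338. The cause was not tested. The outer borders of all 3 gains kept their place under GC correction and flanks of 1 and 3 Mb, and no alternative called a segment in Ctrl. Depth limits single bins, since 0.3 was recovered in part only in simulated reads. Levels of 1 library have no test against the spread between long-term libraries, whose SD over Tet iTKO was 0.014 for the chromosome.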
